A study of Mus musculus with 6 samples.

Results

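The cytosolic ribosomal protein genes were examined in RNA-seq counts from primary renal tubular epithelial cells (PTECs) of 10-week-old mice in a C57 background. Members were chosen by symbol and a minimum count, as genes named Rpl or Rps with a number, together with Rplp0, Rplp1, Rplp2 and Rpsa. Named pseudogenes, S6 kinases and genes with under 10 counts summed over the libraries were left out. Of the 46095 genes in the table, 90 symbols matched and 85 were kept. Rpl10l and Rpl39l held 1 count each, Rps12l1 held 4, and Rpl32l and Rps4l held 8 each, so these 5 were dropped, whereas Rps28 with 38 counts and Rps29 with 126 were the nearest inside the minimum. The 85 members comprised 34 genes of the small subunit, 48 of the large subunit and 3 of the P-stalk, and 81 were protein coding in RefSeq while Rps3a2, Rps3a3, Rpl6l and Rpl32p were listed there as pseudogenes.

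There were 6 libraries, 3 under each label. The label VHL-KO (replicates 1, 2 and 4) stands for Cre recombinase driven by the Ksp (Cdh16) promoter on floxed VHL alleles (Ksp-Cre with VHL fl/fl), and the label VHL-KO;SETD2-KO (replicates 2, 3 and 4) for the same Cre on VHL fl/fl and Setd2 fl/fl together. Values are given in this order of replicates throughout. The deletion of VHL was therefore shared by both labels, there was no library with intact VHL, and cells that do not express Cre keep the floxed alleles. Libraries held 11168552 to 17883466 counts. On these totals 3 counts, taken as the smallest signal that can be told from 0, corresponded to 0.168 to 0.269 CPM (counts scaled to a common library total). This floor covers counting error only. The CPM of genes below are also scaled by TMM, edgeR's library normalisation, so the floor is approximate for them.

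Setd2, the targeted gene, was not lower under the label that names its deletion. Under the VHL-KO label Setd2 had 1179, 799 and 132 counts, and under the VHL-KO;SETD2-KO label it had 1499, 1019 and 1429, with a log2 fold change of 0.52 (SE 0.64, adjusted p = 0.787 by edgeR's quasi-likelihood test) and of 0.05 (SE 0.21, adjusted p = 0.913 by edgeR) without the library labelled VHL-KO 4. Vhl counts were 232, 139 and 276 against 271, 317 and 189. Gene counts cannot separate the floxed exons from the rest, and every direction below is one between labels. Xist, the RNA of the inactive X chromosome, had 11704 counts in VHL-KO;SETD2-KO 3 and 0 to 4 elsewhere. The library labelled VHL-KO 4 stood apart, with Spearman correlations of 0.717 to 0.765 with the other 5 across tested genes, which had 0.937 to 0.986 among themselves. Genes encoded on mitochondrial DNA took 11.3% of its counts and 25.9% to 36.4% of the counts of the others. Results that rest on it are given with and without it.

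The cytosolic ribosome is built from ribosomal RNA and about one copy each of a fixed set of proteins, so the genes of these proteins are known for being transcribed at similar, high rates in nearly every cell. Proteins of the small subunit (Rps) form the part that decodes the mRNA, and proteins of the large subunit (Rpl) the part that joins amino acids and holds the exit tunnel. The P-stalk proteins (Rplp) recruit the elongation factors. Most of these mRNAs begin with a run of pyrimidines (the 5′ terminal oligopyrimidine, or TOP, motif) through which mTORC1 controls their translation, and most of the genes have many processed pseudogenes, copies of the spliced mRNA elsewhere in the genome.

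Rpl29 was the member with the largest difference between labels, and 2 near-identical copies of it carried much of its family's counts. Rpl29, a large subunit protein, lies at chr9:106429454-106431568 on the plus strand (GRCm38), 4.10 megabases from Setd2 at chr9:110532597-110618633. Gm6344 is a processed copy at chr13:55085777-55086259 and Gm13841 another at chr5:115801677-115802159 on the minus strand. Each matched the 483 coding bases of Rpl29 with an identity of 99.4% and 3 mismatches. Counted from 1 at the first base of the Rpl29 coding sequence, with the base of Rpl29 first, Gm6344 differed by C300T, T423C and G454A, and Gm13841 by C72A, C300T and T423C. The 29-base windows around positions 72 and 454, from GENCODE transcripts of GRCm38, are shown because each holds a base that 1 of these 3 loci has alone. Position 72 separates Gm13841 from the other two, position 454 separates Gm6344 from the other two, and positions 300 and 423 separate Rpl29 from both copies. The capital marks the position that differs.
Rpl29, position 72: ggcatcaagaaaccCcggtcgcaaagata
Gm13841, position 72: ggcatcaagaaaccAcggtcgcaaagata
Rpl29, position 454: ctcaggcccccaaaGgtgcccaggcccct
Gm6344, position 454: ctcaggcccccaaaAgtgcccaggcccct

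Rpl29 had 709, 502 and 1129 counts under the VHL-KO label, and 24, 7 and 17 under the VHL-KO;SETD2-KO label. Scaled by TMM, edgeR's library normalisation, these were 64.9 ± 35.1 and 0.910 ± 0.460 CPM (SD, n = 3 each). The labels did not overlap. The log2 fold change was -6.15 (SE 0.69) with an unadjusted p of 1.76e-05 and an adjusted p of 0.128 by edgeR. Without the library labelled VHL-KO 4 it was -5.62 (SE 0.39, adjusted p = 0.0546 by edgeR), and over the alternatives tried with Rpl29 counted on its own the edgeR adjusted p ran from 0.000588 with no filter on low counts to 0.982 without VHL-KO;SETD2-KO 4. DESeq2 over all 6 libraries gave an adjusted p of 4.07e-19 when adjusted over all tested genes.

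Gm6344 went the same way, and Gm13841 did not. Gm6344 had 384, 261 and 522 counts under the VHL-KO label and 2, 2 and 1 under the VHL-KO;SETD2-KO label, with a log2 fold change of -8.40 (SE 0.65, adjusted p = 0.0147 by edgeR) that rests on those few counts. It was the only one of the 14611 tested genes with an adjusted p under 0.05 and at least a 1.5-fold difference. That call held without any 1 of the VHL-KO libraries (adjusted p of 0.00182 to 0.0336 by edgeR). It was lost without any 1 of the VHL-KO;SETD2-KO libraries, with an adjusted p of up to 0.437 by edgeR. The log2 fold change in those fits still lay between -8.53 and -8.17. Gm6344 and Gm13841 were chosen after their values were seen. Gm13841 had 805, 482 and 1066 counts against 1544, 1427 and 1089. Its log2 fold change was 0.26 (SE 0.44, adjusted p = 0.837 by edgeR) over all 6 libraries and 0.72 (SE 0.14, adjusted p = 0.0962 by edgeR) without the library labelled VHL-KO 4, whose 99.5 CPM lay above every other library. Without that library its labels did not overlap, at 48.7 and 44.5 CPM against 81.9, 80.2 and 68.2, and DESeq2 called it higher (log2 fold change 0.71, adjusted p = 0.00387 by DESeq2). Fewer transcripts per cell and fewer cells with the transcript cannot be told apart in such bulk samples. The counts also do not show from which of these near-identical loci a read came, and whether these mice carry the reference base at each of these positions was not tested.

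Smaller copies, chosen after their values were seen, held few counts. Gm8210, which carries C72A, C300T and T423C as Gm13841 does, had 25, 17 and 39 counts under the VHL-KO label and 65, 27 and 47 under the other. Gm10709, which lacks C72A and differs from Rpl29 by G205A, C300T, T423C and G457A, had 10, 3 and 19 counts against 0, 0 and 0. Rpl29-ps2 also lacks C72A, with 11 mismatches over 478 aligned bases, and had 35, 12 and 14 counts against 19, 11 and 7, so its labels overlapped. The copy 4931440P22Rik, whose alignment has gaps and was not read base by base, had 3, 3 and 5 counts against 8, 7 and 8.

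**Figure D1:**
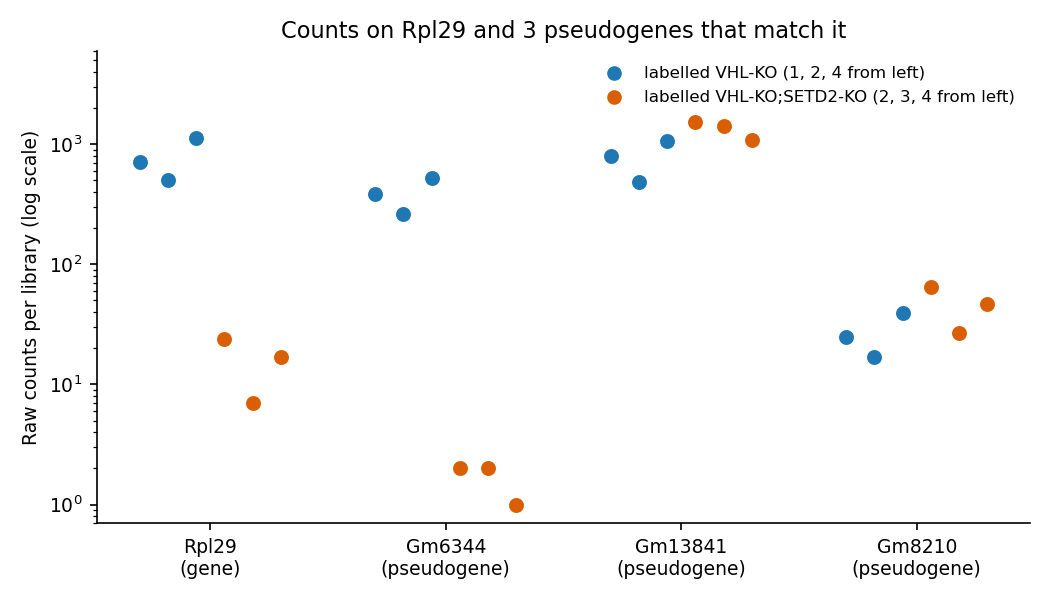
Raw counts per library (log axis) on Rpl29 and on 3 pseudogenes that match it, with 1 point per library, blue for the label VHL-KO (1, 2 and 4 from left to right) and orange for VHL-KO;SETD2-KO (2, 3 and 4). Rpl29 lies between 502 and 1129 under the first label and between 7 and 24 under the second, and Gm6344 between 261 and 522 and at 1 or 2, while Gm13841 lies between 482 and 1544 in every library.

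Counts summed over Rpl29 and the 23 pseudogenes that matched it moved far less than Rpl29 itself. The sums were 1973, 1288 and 2797 under the VHL-KO label and 1670, 1492 and 1179 under the VHL-KO;SETD2-KO label. Scaled to CPM they were 119, 119 and 261 against 88.6, 83.9 and 73.8, so the labels did not overlap, with or without the library labelled VHL-KO 4. Rpl29 took 35.9%, 39.0% and 40.4% of them under the first label and 1.44%, 0.469% and 1.44% under the second. The log2 fold change of the family was -1.02 (adjusted p = 0.625 by edgeR), and without the library labelled VHL-KO 4 it was -0.54 (unadjusted p of 0.00793 and adjusted p = 0.133 by edgeR), a fold under 1.5. This summing was added after the data had been seen.

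Apart from Rpl29, few members passed a test between the labels. At an unadjusted p under 0.05 with at least a 1.5-fold difference, 0 of the 84 tested members were higher under the VHL-KO;SETD2-KO label (2.66% of all 14611 tested genes were) and 2 were lower, Rpl29 and Rpl3l (4.68% of all tested genes were). With the adjusted p, 0 members were called lower (0.00684% of all tested genes) and 0 higher (0% of all tested genes). DESeq2 called 0 members higher and 3 lower at the unadjusted p, Rpl29, Rpl3l and Rps2, beside 2.86% and 7.75% of all tested genes. After its own filter on mean counts it gave an adjusted p to 1008 of the 14611 genes and to 29 of the 84 members, not including Rpl29 or Rpl3l, and called 0 of the 29 (0.0992% of the 1008 higher, 5.56% lower). Adjusted over all tested genes, an alternative added after seeing the data, it called Rpl29 alone of the members (0.172% of genes lower, 0% higher). Rps28, at 0.169 to 1.03 CPM, was the one member with too few counts to be tested.

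The sign of the members as a group turned with 1 library. Over all 6 libraries the median log2 fold change of the 84 members was -0.44, against 0.01 over all tested genes, and 24 members lay above 0 (50.5% of all tested genes did). Without the library labelled VHL-KO 4 the median was 0.22, against 0.04 over all tested genes, and 75 of 84 members lay above 0 (53.1% of all tested genes did). In that comparison 0 members were called higher (8.29% of all tested genes) and 1, Rpl29, was called lower (7.15%), and at the adjusted p 0 were called (0.00667% of all tested genes lower). The 2 labels did not overlap in CPM for 32 members higher and 4 lower, beside 20.5% and 21.2% of all tested genes. With all 6 libraries they did not overlap for 7 members higher and 4 lower, beside 9.62% and 11% of all tested genes. Rpl31, which lies at the exit tunnel, had a log2 fold change of 0.56 (SE 0.21, adjusted p = 0.226 by edgeR) without that library, a fold under 1.5.

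The calls on Rpl29 and Rpl3l were also read in the other fits. In DESeq2 without the library labelled VHL-KO 4, Rpl29 was the 1 member lower at the unadjusted p (7.29% of all tested genes lower, 9.5% higher) and the 1 member lower at the adjusted p (5.33% of the genes with an adjusted p lower, 4.11% higher). With the replicate number as a block it was again the 1 member lower (0.37% of all tested genes lower, 0.637% higher). With length and GC content as an offset, Rpl29, Rpl3l and Rps27l were lower at the unadjusted p (9.29% of all genes in that fit lower, 5.52% higher) and Rpl29 at the adjusted p (0.0145% lower). With counts of pseudogenes matched by sequence added to each member, Rpl3l was the 1 member lower (4.69% lower, 2.64% higher) and Rpl29 was not called.

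**Figure D2:**
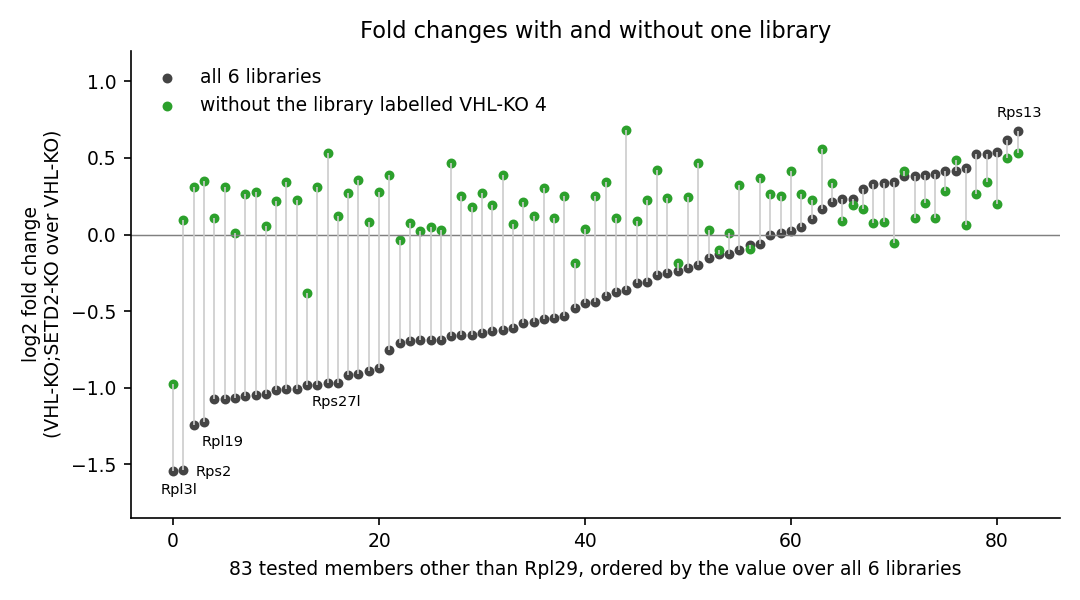
Log2 fold change between the labels (VHL-KO;SETD2-KO over VHL-KO) of the 83 tested members other than Rpl29, ordered along the x axis by the value over all 6 libraries (dark points), with the value without the library labelled VHL-KO 4 in green and a grey line joining the pair. The median over the 84 tested members was -0.44 with that library and 0.22 without it.

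The share of all counts that fell on the members showed the same turn. It was 0.643%, 0.636% and 1.77% under the VHL-KO label, and 0.881%, 0.946% and 0.722% under VHL-KO;SETD2-KO. The library labelled VHL-KO 4 was the highest of the 6 and the other 2 of its label were the lowest. The means were 1.02% ± 0.654 and 0.850% ± 0.115 (SD, n = 3 each), a difference within the spread between libraries. Leaving out genes encoded on mitochondrial DNA gave 0.982%, 0.945% and 2.00% against 1.26%, 1.28% and 1.13%, with the same library highest and the same 2 lowest.

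**Figure D3:**
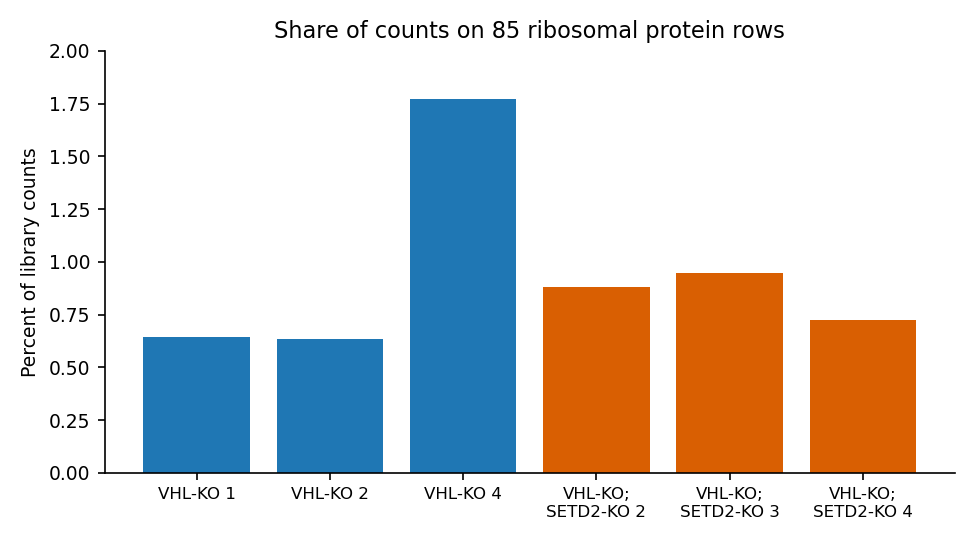
Percent of each library's counts that fell on the 85 members, 1 bar per library, blue for the label VHL-KO and orange for VHL-KO;SETD2-KO. The library labelled VHL-KO 4 reaches 1.77% and the other 5 lie between 0.636% and 0.946%.

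Small subunit genes lay mostly below 0 with that library and above 0 without it. The 30 tested canonical genes of the small subunit had a median log2 fold change of -0.56 over all 6 libraries and 0.26 without the library labelled VHL-KO 4, where 29 of 30 lay above 0. Rps2, a protein near the mRNA entry channel, had 118, 208 and 1190 CPM under the VHL-KO label and 197, 222 and 104 CPM under the other. The library labelled VHL-KO 4 was far above the rest, and the log2 fold change went from -1.54 (SE 0.86, adjusted p = 0.625 by edgeR) to 0.10 (SE 0.39, adjusted p = 0.913 by edgeR) without it. Rps15, with 673 CPM per kilobase over all 6 libraries and 400 over the other 5, had 196, 177 and 1092 CPM against 224, 264.7 and 209. Rpsa, which is also known as the laminin receptor, had 238, 228 and 1033 CPM against 263, 226 and 238, and 5 of these 6 libraries lay within a narrow range.

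Rps13, Rps27a, Rps24 and Rps3a1, all of the small subunit, were among the 5 members with the highest log2 fold change over all 6 libraries, together with the RefSeq pseudogene Rps3a3. None reached an unadjusted p under 0.05. Rps13 stood at 0.67 (SE 0.55), Rps27a at 0.62 (SE 0.44), Rps24 at 0.54 (SE 0.48), Rps3a3 at 0.52 (SE 0.41) and Rps3a1 at 0.52 (SE 0.42), each with an adjusted p between 0.660 and 0.719 by edgeR. Without the library labelled VHL-KO 4 they stood at 0.53, 0.50, 0.20, 0.34 and 0.26 in the same order. With pseudogenes matched by sequence added over all 6 libraries, they stood at -0.36, 0.19, 0.55, 0.52 and 0.54, so Rps13 changed sign. With these added and the library labelled VHL-KO 4 left out, they stood at 0.11, 0.35, 0.24, 0.34 and 0.28. Rps24 had 213, 211 and 80.9 CPM under the VHL-KO label and 268, 231 and 233 CPM under the other. Here the library labelled VHL-KO 4 was the lowest of the 6. Rps27a, which is made as a fusion with ubiquitin, had 2.66, 3.42 and 2.33 CPM against 4.61, 3.71 and 4.57 CPM, so the labels did not overlap. These values leave out its copies, as Rps27a held only 13.6% to 33.8% of the counts of itself and its matched pseudogenes. Rps4x, the X-linked small subunit gene, had 252, 240 and 380 CPM against 311, 291 and 279, with a log2 fold change of 0.01 (SE 0.40) whose sign changed with the normalisation. Its value in the library with Xist counts lay between those of the other 2 of its label.

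Large subunit genes followed the same course. The 43 tested canonical genes had a median of -0.36 over all 6 libraries and 0.20 without the library labelled VHL-KO 4, where 38 of 43 lay above 0. Rpl19 had 67.2, 62.7 and 444 CPM under the VHL-KO label and 82.6, 86.6 and 72.8 CPM under the other, and its log2 fold change went from -1.25 (SE 0.77) to 0.31 (SE 0.14, adjusted p = 0.273 by edgeR) without that library. Rpl41, a very short basic protein and the most abundant member per kilobase of transcript (a mean of 751 CPM per kilobase over all 6 libraries and 491 over the 5 without VHL-KO 4, the highest in both), had 260, 231 and 1081 CPM against 271, 283 and 248. Rpl5 and Rpl11, which form a particle with 5S RNA and bind MDM2 when ribosome assembly fails, differed in the library labelled VHL-KO 4. Rpl5 had 36.4, 27.2 and 9.24 CPM against 31.0, 31.1 and 30.2, so that library was the lowest. Rpl11 had 62.0, 55.9 and 174 CPM against 64.1, 59.98 and 57.4, so that library was the highest.

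The 3 P-stalk genes had log2 fold changes of -1.22 for Rplp1, -1.07 for Rplp0 and -1.05 for Rplp2, none past the test (lowest adjusted p = 0.629 by edgeR). Rplp0, often used as a reference gene in RT-qPCR, had 389, 380 and 1675 CPM under the VHL-KO label and 373, 425 and 366 CPM under the other. Without the library labelled VHL-KO 4 its log2 fold change was 0.01 (SE 0.17). Rplp1 had 155, 132 and 997 CPM against 169, 228 and 151, and Rplp2 had 73.2, 70.6 and 400 CPM against 86.8, 95.4 and 80.3. In all 3 genes a single library carried the difference.

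Besides Rpl29, the members whose labels did not overlap in the lower direction, with and without that library, were 3 paralogs. With Rpl29 these make 4 of 84, or 4.76%, beside 11% of all tested genes with that library and 21.2% without it. Rpl3l, the paralog of Rpl3 that is known from heart and skeletal muscle, had 1.63, 2.68 and 5.23 CPM under the VHL-KO label and 1.22, 1.41 and 0.626 CPM under the other, with a log2 fold change of -1.54 (SE 0.63, adjusted p = 0.625 by edgeR) and -0.98 (SE 0.50, adjusted p = 0.322 by edgeR) without the library labelled VHL-KO 4. Rps27l, a p53-inducible paralog of Rps27, had 75.6, 66.7 and 182 CPM against 53.4, 59.1 and 51.5, with a log2 fold change of -0.98 (SE 0.49, adjusted p = 0.625 by edgeR) and -0.38 (SE 0.13, adjusted p = 0.201 by edgeR) without that library. Rpl7l1, which works in ribosome assembly, had 51.5, 49.96 and 85.1 CPM against 42.8, 46.5 and 44.6. Over all 6 libraries only Rpl3l of these 3 passed the unadjusted threshold. Rpl22l1 overlapped, at 12.8, 13.8 and 16.8 CPM against 16.8, 13.4 and 16.4. The parents gave log2 fold changes of -0.53 for Rpl3, 0.42 for Rps27, 0.39 for Rpl7 and -0.31 for Rpl22, none past the test, and without the library labelled VHL-KO 4 they gave 0.25, 0.49, 0.20 and 0.23, so that Rpl3 and Rpl22 changed sign.

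Over the 5 libraries other than VHL-KO 4, most members varied less than the median tested gene. Over these 5, the median coefficient of variation of the tested members was 13.5%, against 23.2% over all tested genes, and 58 members lay under 20%. Rpl7a varied least, at 3.46%, and Rpl29 most, at 130.3%, followed by Rpl35a at 56.9%. Over all 6 libraries the median of the members was 51.7%. Counts were drawn from the same libraries for every gene, so these values are a description. The comparison with all tested genes was not matched for count level, and genes with few counts vary more through counting alone.

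The library labelled VHL-KO 4 did not raise all members. Of the 84 tested, 63 were above all other 5 libraries, 15 were below all of them and 6 lay within, whereas 40.0% of all tested genes were above and 41.6% below. The ratio of its CPM to the mean of the other 5 ran from 0.296 for Rpl5 to 7.02 for Rps2, with a median of 2.59. It exceeded 2 in 48 members and was under 0.5 in 7. The ratio went with the base composition of the transcript. For correlations, log2 CPM (a small constant added) in VHL-KO 4 was taken minus its mean over the other 5. The Spearman correlation of this difference with GC content was 0.61 over 83 members and 0.72 over 13811 tested genes with a known sequence. With transcript length it was -0.23 and -0.31. All points share the same libraries, so these are descriptions. The 20 members of highest GC (at least 55.2%) had a median ratio of 4.47 and the 20 of lowest GC (at most 48.5%) one of 1.05. With length and GC content of the transcript as an offset in the fit, the median log2 fold change of the members was -0.09, against -0.04 over all genes in that fit, and Rpl29 reached an adjusted p of 0.0314 by edgeR.

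**Figure D4:**
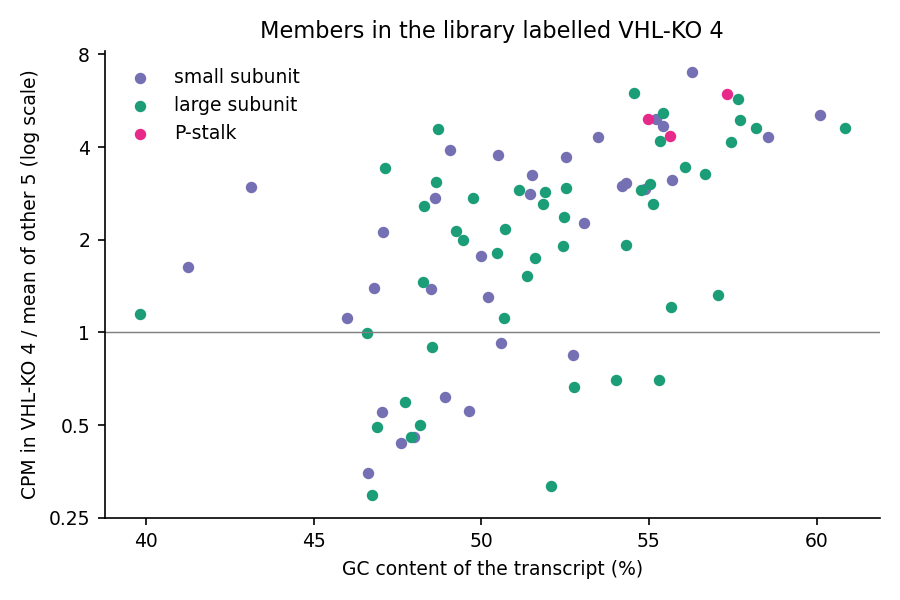
Ratio of CPM in the library labelled VHL-KO 4 to the mean of the other 5 libraries (log axis) against the GC content of the transcript in percent, 1 point per tested member, coloured by subunit. Ratios run from 0.296 to 7.02 and rise with GC, with a median of 1.05 in the 20 members of lowest GC and 4.47 in the 20 of highest GC.

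Other cell types also moved with that library. Markers of the loop of Henle and distal tubule summed to 7069 CPM in it and 1786 to 5043 in the other 5, those of the collecting duct to 559 against 54.6 to 323, of macrophages to 792 against 147 to 397, of fibroblast and mural cells to 426 against 86.6 to 232, and of erythroid cells to 1880 against 533 to 674. Lymphocyte markers (25.1 CPM against 14.9 to 79.5) did not stand out, and markers of proliferating cells were lowest in it (4.95 CPM against 8.09 to 16.6). Between the labels, markers of the proximal tubule differed: all 10 were detected, 1 of 10 had a log2 fold change above 0, Slc34a1 and Slc22a6 fell by edgeR's unadjusted threshold (6 did without the library labelled VHL-KO 4, and 2 passed DESeq2's own adjusted p over all 6 libraries but none did when adjusted over all tested genes), and the sum of the 10 was 35372 to 38878 CPM under the VHL-KO label and 15568 to 17425 CPM under the other. Of 8 podocyte markers 8 lay above 0 and 4 rose by that threshold, with sums of 1558 to 2417 against 2168 to 5250 CPM, and of 8 endothelial markers 7 lay above 0 and none passed, while their sum was lowest in the library labelled VHL-KO 4 (1707 CPM against 1975 to 5664). Of 8 markers of the loop of Henle and distal tubule 5 lay above 0 and Calb1 and Kcnj1 rose by the unadjusted threshold, and without that library Kcnj1 and Slc12a3 did, while DESeq2 called Cdh16 lower over all 6 libraries. Of 8 collecting duct markers 5 lay above 0 and Atp6v1g3 and Slc26a4 rose, and without that library Atp6v1g3, Scnn1g and Foxi1 did. With the replicate block 2 and 4 of these 8 lay above 0 and none was called. Of 8 macrophage markers 1 lay above 0 and C1qa and C1qb fell, and without that library Adgre1 alone did, while C1qa, C1qb and C1qc fell with the replicate block and in DESeq2. Of 7 tested fibroblast and mural markers 3 lay above 0 and none was called, with a median of -0.37. Without that library 8 of 8 lay above 0, with a median of 0.67, and Col1a2 and Acta2 rose. Col1a1 fell with the replicate block. At edgeR's unadjusted threshold, 2.66% of all tested genes were higher and 4.68% lower over all 6 libraries. Without the library labelled VHL-KO 4 these shares were 8.29% and 7.15%. They were 0.637% and 0.37% with the replicate block, and 2.86% and 7.75% in DESeq2 over all 6 libraries. At the adjusted p, DESeq2 without the library labelled VHL-KO 4 called 6 of 10 proximal tubule markers lower, beside 5.33% of genes with an adjusted p. It called 5 of 8 podocyte markers, 3 of 8 collecting duct markers and Kcnj1 higher, beside 4.11% of those genes. The part of these cells in the members' values was not tested.

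Pseudogene copies made the level of several other members uncertain. GENCODE pseudogenes matched 76 of the members, 402 of the 1016 matched copies had a count, and these copies held 19.1% of the counts of members and copies together. The gene itself held under 50% of its family's counts in 25 members and under 10% in 7, among them Rps28 with 0.891%, Rps23 with 3.01%, Rps29 with 3.11% and Rps13 with 3.25%. The CPM of these genes leaves out what was counted on their copies. With matched copies added over all libraries, the log2 fold change of Rps13 changed sign, from 0.67 to -0.36. With the copies added and the library labelled VHL-KO 4 left out it was 0.11.

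In 4 members the share held by the gene varied over more than 30 percentage points between libraries, and only for Rpl29 did it divide by label. Rpl35a, a large subunit protein, had 83.1, 6.46 and 190 CPM under the VHL-KO label and 88.5, 46.8 and 82.8 CPM under the other, so the library labelled VHL-KO 2 was far below the rest. It held 53.8%, 7.44% and 66.8% of its family's counts there, and 54.1%, 37.4% and 58.4% under the other label. Its copy Gm10243, at chr6:48523518-48523850, differs from the coding sequence of Rpl35a by G156A alone, and had between 59.0 and 92.8 CPM in every library. The pair is shown around that base, the capital, because 1 base separates the gene from a copy that varied less.
Rpl35a, position 156: gcttatgtgtataaGgcaaaaaacaatac
Gm10243, position 156: gcttatgtgtataaAgcaaaaaacaatac

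Rps2 held 51.6% of its family's counts in the library labelled VHL-KO 1 and 52.2% in VHL-KO;SETD2-KO 4, and between 94.1% and 96.2% in the other 4. Counts on its pseudogene Rps2-ps10 were 1346, 28 and 111 under the VHL-KO label and 34, 54 and 1121 under the other. Rps7 held between 43.9% and 82.4%, lowest in VHL-KO;SETD2-KO 3, with 3 substitutions (T26G, G48A and G123T, counted from the first coding base of Rps7) between it and Gm6472. These genes and copies were chosen after their values were seen.

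**Figure D5:**
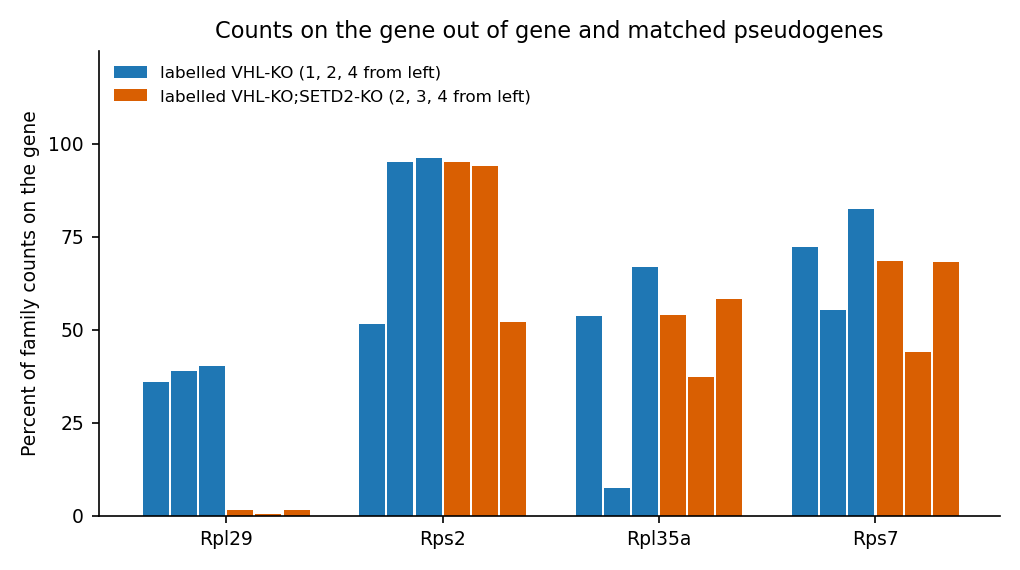
Percent of the counts of a gene and its matched pseudogenes that fell on the gene, for Rpl29, Rps2, Rpl35a and Rps7, with 1 bar per library, blue for the label VHL-KO (1, 2 and 4 from left to right) and orange for VHL-KO;SETD2-KO (2, 3 and 4). Rpl29 divides by label, at 35.9% to 40.4% against 0.469% to 1.44%, and the other 3 genes do not.

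The start sites of the members were examined because the TOP motif lies there. RefSeq's table for GRCm38.p6 gave a promoter of 300 bases for 61 members. A run of at least 7 C or T on the gene's strand within 15 bases of the annotated start was found in 30 of 61 (49.2%), against 18.5% of all 27025 promoters in the table. The letters ACTTCCG on either strand, a core of the sites that ETS factors bind, were found in 34.4% of the members' promoters and 6.59% of all, AAGATGGC on either strand in 8.2% and 2.88%, and TATAAA on the gene's strand in 9.84% and 8.88%. A match describes the letters only. The starts are those annotated by RefSeq and were not measured in these cells. The lack of a run at an annotated start therefore does not show that the mRNA lacks the TOP motif. The 30 bases around the start are shown for Rpl7a, which has the longest run and varied least between the 5 libraries, and for Rpl41, Rplp0 and Rps15, the 3 most abundant members per kilobase over all 6 libraries (1, 2 and 4 in rank without the library labelled VHL-KO 4), and the members Rps2, Rpl19 and Rpl3l, which over all 6 libraries had the lowest fold changes after Rpl29. Of these only Rpl3l stayed below 0 without that library. Capitals mark runs of at least 7 C or T.
Rpl7a, chr2:26910792-26910821, plus strand: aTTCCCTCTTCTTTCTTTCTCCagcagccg
Rpl41, chr10:128549154-128549183, minus strand: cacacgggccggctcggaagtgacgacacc
Rplp0, chr5:115559452-115559481, plus strand: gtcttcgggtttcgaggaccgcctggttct
Rps15, chr10:80292416-80292445, plus strand: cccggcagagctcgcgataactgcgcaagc
Rps2, chr17:24720048-24720077, plus strand: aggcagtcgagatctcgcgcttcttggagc
Rpl19, chr11:98026695-98026724, plus strand: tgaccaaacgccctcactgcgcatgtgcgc
Rpl3l, chr17:24727811-24727840, plus strand: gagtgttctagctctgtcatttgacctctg

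Other genes of the translation machinery were compared in the same fit. None of the 12 elongation and termination factors, the 24 other TOP mRNAs, the 43 ribosome biogenesis factors or the 15 p53 targets was called by edgeR's test over all 6 libraries, with medians of -0.18, 0.15, 0.04 and 0.04, and of -0.09, 0.01, -0.10 and 0.09 without the library labelled VHL-KO 4. Without that library, Nle1 (biogenesis) and Phlda3 (a p53 target) were called higher and Perp (a p53 target) lower, at the unadjusted p, 1 of 43 and 1 of 15 higher and 1 of 15 lower beside 8.29% and 7.15% of all tested genes. Of 47 initiation factors, Eif4e3, a cap-binding protein, was called higher (log2 fold change 0.94, adjusted p = 0.625 by edgeR), beside 2.66% of all tested genes, and the median was 0.01. DESeq2 called no initiation factor higher.

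Among 23 regulators of mTORC1 and MYC, 0 were called higher and 2 lower (4.68% of all tested genes were lower). Without the library labelled VHL-KO 4, Mxd4 was higher and 5 were lower, Mtor, Rps6kb2, Larp4, Larp4b and Myc, beside 8.29% and 7.15% of all tested genes, and DESeq2 over all 6 libraries called Mtor, Akt1s1 and Rps6kb2 lower. Mtor, the kinase of mTORC1, had 112, 118 and 109 CPM under the VHL-KO label and 44.1, 38.8 and 67.2 CPM under the other. The labels did not overlap, and the log2 fold change was -1.17 (SE 0.40, adjusted p = 0.625 by edgeR) and -1.20 (SE 0.25, adjusted p = 0.0983 by edgeR) without the library labelled VHL-KO 4, where DESeq2 gave -1.21 (adjusted p = 0.00151 by DESeq2). Rps6kb2, an S6 kinase, was low throughout, at 1.39, 0.739 and 3.73 CPM against 0.477, 0.281 and 0.376. Ribosomal proteins of mitochondria, which are encoded in the nucleus as well, had 0 of 76 called higher and 6 lower by edgeR, and 20 lower by DESeq2 (7.75% of all tested genes), with a median of -0.69 and, without that library, -0.26 with 2 called lower. Nuclear-encoded subunits of the respiratory chain had 1 of 78 called lower by edgeR, Ndufb4, and 20 by DESeq2, with a median of -0.97 and -0.14. DESeq2 called Eif5a, Bop1, Eif6 and Sesn2 of the lists without an edgeR call lower at the unadjusted p. With p adjusted over all tested genes, no gene of these lists was called by edgeR or DESeq2 over all 6 libraries, while DESeq2's own filter gave 62 of the 306 tested an adjusted p and called 0. Without the library labelled VHL-KO 4, DESeq2 called Mxd4 higher and Larp4, Larp4b, Mrpl16, Mtor, Ndufb4 and Perp lower at the adjusted p, beside 4.11% and 5.33% of genes.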

How the data were processed

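The authors prepared directional libraries from total RNA of PTECs and sequenced them as paired ends of 150 bases. Per the labels, reads were aligned with HISAT2 2.0.4 to GRCm38. The program and annotation used for counting are not given in the sources used here. The deposited table holds raw counts per gene symbol for 6 libraries, and 0 per-sample columns were left unused. The study gives 3 mice per group for these data, and p-values measure the spread between the libraries.

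From the counts, edgeR 4.0.16 in R 4.3.3 was fitted to all 14611 genes that passed filterByExpr, with TMM factors of 0.830 to 1.16, the label as the only factor and Benjamini-Hochberg adjustment over all tested genes. The thresholds (p under 0.05, fold change of at least 1.5) are those of the study, which used DESeq2 and does not say whether p was adjusted. DESeq2 1.42.0, limma-voom 3.58.1, other normalisations and filters, a replicate block, an offset for length and GC content and each library left out were alternatives. Fits were tested on simulated data. Adjusted p-values are from edgeR unless another tool is named. Pseudogenes of GENCODE M21 were matched to members with BLAST 2.17.0, at an identity of at least 80% over at least 60% of the pseudogene. Protein sequences were not used here.

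Members and lists were chosen with earlier results of these data known. Members were named when called (up to 12), when among the 5 highest or 5 lowest fold changes or the 5 most abundant per kilobase, and for their role (the P-stalk, Rpsa, Rps27a, Rpl5, Rpl11, Rps4x, Rpl29, and paralogs with their parents). Rpl31, and members given for their counts, spread or pseudogene share, were named outside these rules. Other lists covered translation factors, biogenesis, mTORC1 and MYC, p53, mitochondrial ribosomes, the respiratory chain and cell type markers. A list of ribosomal proteins outside the naming rule is not reported here.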

Additional observations from a re-analysis of the deposited data

How the results depend on the processing

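The count of 0 members called higher held under every alternative tried. The count of 2 lower was 1, Rpl29, with library totals only, library sizes without the top 20 genes, limma-voom and DESeq2 without VHL-KO 4. It was 1, Rpl3l, with at least 10 counts in every library, a filter that removed Rpl29 (7 counts in VHL-KO;SETD2-KO 3). It was also 1, Rpl3l, with pseudogenes matched by sequence added, and 0 with these added and VHL-KO 4 left out. With each library left out in turn it ran from 1 to 3. Rpl29 was called at the adjusted p (count of 1) with no filter, with DESeq2 without VHL-KO 4, with DESeq2 adjusted over all tested genes and with the length and GC offset, and was not called with pseudogenes matched by sequence added, whereas adding those matched by name left it lower at the unadjusted p (log2 fold change -5.37). The median log2 fold change of the members ran from -0.68 to 0.22 with each library left out, was 0.22 in DESeq2 without VHL-KO 4 and 0.23 with pseudogenes matched by sequence added and that library left out. The difference in the summed share ran from -0.358 to 0.210 percentage points. Genes called in the context lists numbered 10, against 48 with DESeq2, 0 with the replicate block and 1 to 57 with a library left out. Replicate numbers 2 and 4 occur under both labels. Their deviations correlated at 0.165 and -0.319, which does not settle whether the numbers pair the libraries, and with the replicate block 1 member was lower. The causes of these changes were not tested.

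Single members changed sign as follows, in log2 fold change. With each library left out, Rps2 ran from -1.98 to 0.10, Rpl19 from -1.64 to 0.31, Rplp1 from -1.63 to 0.35, Rps15 from -1.45 to 0.31, Rplp0 from -1.39 to 0.0092, Rpl41 from -1.30 to 0.12, Rpl32p from -1.26 to 0.36, Rplp2 from -1.41 to 0.28, Rpsa from -1.37 to 0.053, Rpl5 from -0.054 to 0.76, Rpl11 from -0.94 to 0.033, Rpl3 from -0.80 to 0.25, Rpl22 from -0.52 to 0.23, Rpl35a from -0.89 to 0.68 and Rps4x from -0.093 to 0.25. Except in Rps4x, the turn came without VHL-KO 4. DESeq2 without that library gave Rps2 0.092, Rpl19 0.30, Rplp1 0.35, Rps15 0.31, Rplp0 0.0045, Rpl41 0.11, Rpl32p 0.35, Rplp2 0.27, Rpsa 0.047, Rpl5 -0.061, Rpl11 0.027, Rpl3 0.25, Rpl22 0.22 and Rpl35a 0.69. Pseudogenes matched by sequence, added without that library, gave Rpl19 0.19, Rplp1 0.35, Rps15 0.31, Rplp0 0.020, Rpl41 0.12, Rpl32p 0.36, Rplp2 0.28, Rpsa 0.051, Rpl11 0.080, Rpl3 0.24, Rpl22 0.23, Rpl35a 0.24 and Rps7 0.056. Rps13 was -0.36 with pseudogenes added over all libraries, both when matched by name and when matched by sequence. With those matched by sequence added and VHL-KO 4 left out it was 0.11. Rpl22 was 0.028 with library totals only and 0.075 without the top 20 genes, where Rpl35a was 0.10. Rpl35a was 0.58 with limma-voom and 1.27 with the replicate block. Rps4x was -0.031 with RLE normalisation and with DESeq2, -0.038 with the replicate block and -0.091 with the offset, where Rpl22l1 was -0.85. Matching pseudogenes by sequence and adjusting DESeq2 over all tested genes were chosen after seeing the data. At 11168552 to 17883466 counts, members near 1 CPM such as Rpl3l rest on few counts.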
